A study of Sus scrofa with 8 samples.

Results

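H3K27ac was found in both cell types, and away from the ends of protein-coding genes, at 7891 regions of the pig genome. The islands of the 4 H3K27ac libraries were merged on chromosomes 1 to 18 wherever they overlapped, which gave 98547 merged regions. An island is a stretch of the genome where ChIP reads cluster, as the authors' caller reported it. The 7891 regions, called shared distal regions, were those under 20 kb wide that held an island from all 4 libraries and overlapped no window of 2 kb on either side of an end of a protein-coding gene. They were thus chosen by a measured value, the presence of an island in each library, and by place. They were part of 20051 regions with an island from all 4 libraries, of which 8629 under 20 kb lay at gene ends and 1771 away from gene ends were 20 kb or wider.

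The study profiled H3K27ac by ChIP-seq in 2 pig cell types with no treatment or genotype given in the labels, with 2 libraries and 2 input libraries for each. The pgEpiSC are pre-gastrulation epiblast stem cells, a pluripotent type kept as stable lines, and their stage label is the epiblast of embryonic day 10. The pEF are porcine embryonic fibroblasts of embryonic day 30. The pgEpiSC libraries are numbered 1 and 4 and the pEF libraries 1 and 2, and nothing in the labels ties a library to a line, animal or culture. The p-values therefore measure only the spread between these libraries, which may be technical.

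H3K27ac is an acetylation of histone H3 placed by the enzymes p300 and CBP. It marks active promoters and active enhancers, the stretches of DNA that raise transcription from promoters that may lie far away. Distal regions with this mark are commonly taken as candidate enhancers, and enhancers are known to differ between cell types more than promoters do. The lists give where the mark lies and how many reads it drew, not which element of a region a cell uses.

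The 4 lists held 57790 to 74208 islands and 29679982 to 46383051 ChIP reads in them. Over all islands the median enrichment over input was 1.80 and 1.67 in the pgEpiSC libraries and 3.47 and 3.46 in the pEF libraries, so any comparison of enrichment between types carries this difference, and its part in the results was not tested. The labels held against the mark at defining genes. Islands at the ends of POU5F1, the core pluripotency factor, covered 46.8 and 26.8 kb in pgEpiSC 1 and 4 against 1.8 and 2.0 kb in pEF 1 and 2, and those at LIN28A covered 21.6 and 20.4 kb against none. Islands at the ends of COL1A1, the main fibroblast collagen, covered 3.0 and 4.4 kb in pgEpiSC against 63.2 and 63.4 kb in pEF. Of the 14 listed core pluripotency genes, 13 and 14 had an end island in the pgEpiSC libraries, and 6 and 5 had one in the pEF libraries. The fibroblast matrix list separated the types less, with an end island at 25 and 25 of 32 genes in pgEpiSC and at 30 and 31 in pEF.

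The shared distal regions were 0.4 to 19.8 kb wide, with a median of 8.8 kb, and covered 74.7 Mb in all. Inside a protein-coding gene lay 4572 of them (57.9%, 95% Wilson interval 56.8 to 59.0), and 3319 lay between genes. For comparison, 51.6% of the 18590 distal regions with islands in pgEpiSC only and 46.8% of the 15439 in pEF only lay inside genes. The median distance to the nearest gene end was 34.4 kb, and 1688 regions (21.4%) were more than 100 kb from any. Regions of 1 type only lay farther out, with medians of 53.8 kb for pgEpiSC and 51.7 kb for pEF. Place was part of how the regions were chosen, and these values are descriptions without a test. The interval treats regions as independent, though they come from the same 4 libraries. Other settings gave shares inside genes from 55.3% to 59.5%.

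Some of the distal marks sat at the ends of genes that do not code for protein. An end of a RefSeq long non-coding RNA gene lay in 518 shared distal regions (6.56%), in 2.74% of the distal regions of pgEpiSC only, in 2.31% of those of pEF only and in 10% of the shared gene-end regions. These classes differ in width, and per Mb the numbers of such regions were 6.93, 3.93, 4.67 and 12.3. In the edgeR comparison of ChIP reads given with the calls, 104 of the 518 were higher in pgEpiSC and 133 in pEF, with a median log2 fold change of -0.07. Of the other 7373 regions, 1809 and 1265 were, with a median of 0.26.

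Some genes had many regions. Each region was assigned to the protein-coding genes it lay in, or to the nearest gene within 100 kb, which left 877 without a gene and gave 4017 genes with at least 1 region and 204 with at least 5. ARID1B, a subunit of the SWI/SNF chromatin remodelling complex, and ZBTB20, a zinc finger repressor, had 14 regions each, and AUTS2, a neurodevelopmental gene, had 13. PRKG1, a cGMP-dependent protein kinase, RAD51B, a recombination factor, RBMS3, an RNA-binding protein, TCF12, a bHLH transcription factor, and TENM3, a teneurin adhesion protein, had 12 each. All of these are long genes, from 374 kb for TCF12 to 2584 kb for TENM3, and the ranking makes no correction for gene length. Per 100 kb of gene they had from 0.46 regions (TENM3) to 3.21 (ARID1B). The shorter genes NFATC2 and ABR, with 9 regions each, had 5.49 and 4.84.

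The widest of the shared distal regions, beside NFATC2, in SPATA31D1 and in MAML3, were 19.8 kb wide, and the narrowest distal regions left out for their width, at DIAPH1, IFT122 and EZR, were 20 kb. The region nearest to a gene end that was kept lay 2003 bp from the end of GPR39. Levels are given as CPM, edgeR's normalised read counts, scaled to each library's reads in shared regions with TMM factors. The region beside NFATC2 had 20.3 and 9.72 in pgEpiSC 1 and 4 and 218 and 185 in pEF 1 and 2, while that at IFT122 had 66.5, 65.1, 153 and 160. POSTN, which encodes periostin, had a region 2.03 kb from its end, with 27.2, 21.2, 37.5 and 24.8 CPM in the same order.

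Enrichment over input was lower in the shared distal regions than in the shared gene-end regions in every library. The median over regions, taking the highest island of each, was 1.82 and 1.74 in pgEpiSC 1 and 4, and 3.83 and 3.77 in pEF 1 and 2. At gene ends it was 2.65, 2.42, 7.64 and 6.92. Both pEF libraries stood above both pgEpiSC libraries in either class, as they did over all islands. On the log2 scale the distal regions were lower by 0.54, 0.48, 1.00 and 0.88, with a mean of -0.72 (exact sign-flip permutation test over 4 libraries, two-sided, p = 0.125, the smallest this design can give). The gap was larger in both pEF libraries than in both pgEpiSC libraries (exact permutation test, two-sided, p = 0.333, again the smallest possible). The distal regions of 1 type only had medians of 1.76 and 1.69 in the pgEpiSC libraries, against 1.82 and 1.74 in the shared distal regions. In the pEF libraries they were 3.16 and 3.13, against 3.83 and 3.77. The highest island was taken from a mean of 1.03 to 1.09 islands per region and library there, against 1.14 to 1.19 in the shared distal regions.

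**Figure D1:**
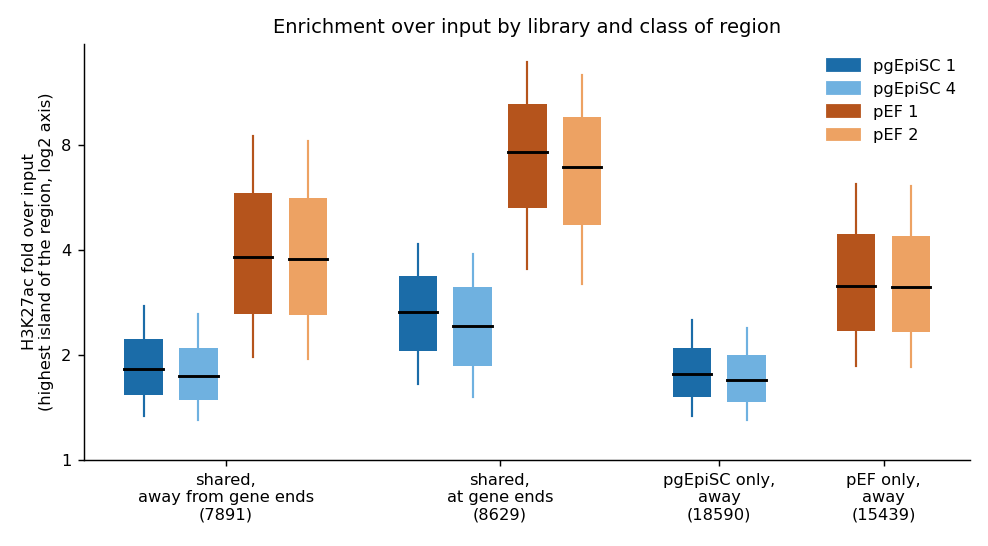
Enrichment of ChIP over input reads (highest island of each region, log2 axis) by library for 4 classes of region, with the number of regions in brackets; "away" means away from gene ends. Boxes span the middle 50% of regions, black lines are medians and thin lines reach from the lowest to the highest 10%; the shared distal medians are 1.82, 1.74, 3.83 and 3.77, below the gene-end medians of 2.65, 2.42, 7.64 and 6.92.

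A 2-fold enrichment in all 4 libraries was reached by 1514 of the shared distal regions (19.2%). It was reached in both pEF libraries and neither pgEpiSC library by 3335, in both pgEpiSC libraries and neither pEF library by 26, and in no library by 299. These counts carry the higher enrichment of the pEF libraries over all islands. Per library, 2-fold was reached by 37.2%, 30.2%, 89.6% and 88.7% of shared distal regions (pgEpiSC 1 and 4, then pEF 1 and 2). At shared gene ends the shares were 77.3%, 68.5%, 98.6% and 98.3%. An island with an FDR under 0.01 was present in every library for 7365. By contrast, 213 regions were under 1-fold in at least 1 library and 56 in all 4, where the scaled input held more reads than the ChIP. The shared distal regions held 12.8% and 11.9% of the island reads of pgEpiSC 1 and 4 (12.4% ± 0.660, SD, n = 2) and 13.9% and 13.7% of those of pEF 1 and 2 (13.8% ± 0.136, SD, n = 2). The shares did not overlap between types (exact permutation test, two-sided, p = 0.333, the smallest that 2 against 2 allows).

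Sharing a region did not mean sharing its whole length. At 7052 regions (89.4%) some bases lay in islands of all 4 libraries, and at 839 no base did. The stretch common to all 4 had a median of 1.8 kb, or 25% of the region. The median island length per region was 5.8 and 5.4 kb in pgEpiSC 1 and 4 and 3.8 and 4.0 kb in pEF 1 and 2. Both pgEpiSC libraries had more island bases than both pEF libraries at 3565 regions (45.2%, against 48.1% of all shared regions), and both pEF libraries had more at 1464 (18.6%, against 20.8%).

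The ChIP reads in each region were compared between the types with edgeR's quasi-likelihood test over all 20051 shared regions, with Benjamini-Hochberg adjustment and a threshold of 0.05. Of the shared distal regions, 1913 (24.2%) were higher in pgEpiSC, where 22.7% of all shared regions were. Higher in pEF were 1398 (17.7%), where 23.5% of all shared regions were, and 4580 were not called. The median log2 fold change (pgEpiSC over pEF) was 0.24 for the shared distal regions, -0.01 for all shared regions and -0.20 for the shared gene-end regions. Of the latter, 15.5% were higher in pgEpiSC and 24.7% in pEF. Of the calls among shared distal regions, 57.8% were towards pgEpiSC, which became 67.7% with scaling to the total of reads in islands and 47.7% when the shared distal regions were fitted alone. Leaving out pgEpiSC 1 left 671 and 641 calls, and leaving out pgEpiSC 4 left 662 and 609, while 2069 and 1584 were called without pEF 1 and 2201 and 1445 without pEF 2.

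Reads were summed over each library's own islands, so a longer island gives more reads. Where a region was higher in pgEpiSC, the median island length was 8.2 kb in pgEpiSC against 2.4 kb in pEF, and where it was higher in pEF it was 4.35 kb against 8.5 kb. Across the 7891 regions the log2 fold change followed the ratio of island lengths (r = 0.88, a description over regions of the same libraries). The reads were therefore also compared per kb of island and per input read, with the offsets centred so that the median of all shared regions stayed near 0. With offsets that were not centred, 21.8% of the calls per kb and 15.8% of those per input read were towards pgEpiSC. With centring, per kb of island, 1522 shared distal regions (19.3%; 14.6% of all shared regions) were higher in pgEpiSC and 878 (11.1%; 16.2%) in pEF. Per input read the numbers were 1284 (16.3%; 11.6%) and 648 (8.21%; 13.4%). Calls on all 3 scales were made at 648 regions towards pgEpiSC and at 444 towards pEF, of which 245 and 245 also passed without each library in turn. Per kb, 26 regions that were higher in pgEpiSC by reads were called the opposite way, and 5 that were higher in pEF. For these counts over several scales, the shares of all shared regions were not computed.

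**Figure D2:**
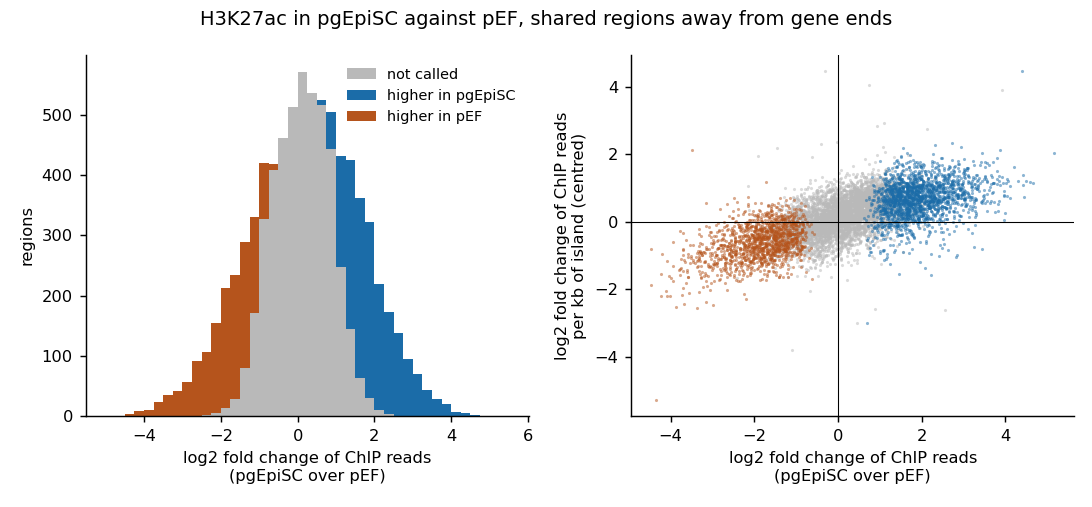
Left, log2 fold change of ChIP reads (pgEpiSC over pEF) of the 7891 shared distal regions, as a stacked histogram: 1913 were higher in pgEpiSC (blue), 1398 higher in pEF (orange) and 4580 not called (grey). Right, the same value against the log2 fold change per kb of island, 1 point per region and the same colours, where most coloured points keep their side of 0 with a smaller difference.

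The input reads inside the islands differed too. They passed the test at 1927 shared distal regions (24.4%, against 29.5% of all shared regions), and at 58 (0.735%, against 0.459%) once taken per kb of island. Of the regions higher in pgEpiSC by ChIP reads, 826 were called the same way by input reads, as were 788 of those higher in pEF. The shares called by ChIP reads were higher in wider regions, from 17.0% higher in pgEpiSC and 11.5% higher in pEF among 1254 regions under 5 kb to 32.7% and 24.8% among 1150 regions of 15 to 20 kb. By distance from a gene end they were 22.3% and 17.8% at 2 to 10 kb and 25.2% and 17.0% beyond 100 kb.

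Within a type the libraries resembled each other, and across types they did so much less. Across the 7891 regions the correlation of log2 CPM was 0.81 between the pgEpiSC libraries, 0.82 between the pEF libraries and 0.19 to 0.20 across types. Per kb of island the values across types rose to 0.44 to 0.50. These are descriptions over regions, which share libraries, depth and island calls. Every chromosome had regions in both directions, and the median log2 fold change ran from 0.10 on chromosome 10 to 0.62 on chromosome 18.

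The largest difference towards pgEpiSC lay inside ZNF831, a zinc finger gene, at chr17:59332801-59351800. Its ChIP reads were 142 and 132 CPM in pgEpiSC 1 and 4 and 2.78 and 4.79 CPM in pEF 1 and 2. Islands covered 15.6 and 15 of its 19 kb in pgEpiSC and 1.0 and 1.6 kb in pEF, and the types did not overlap. The log2 fold change was 5.17 (SE 0.35, edgeR adjusted p = 0.00131), and 2.02 per kb of island.

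A region 30.2 kb from FOS, at chr7:98482201-98497800, was also among the 8 largest. FOS encodes a subunit of the AP-1 transcription factor, an immediate early gene. The region had 69.6 and 63.2 CPM in pgEpiSC against 3.24 and 2.85 in pEF, a log2 fold change of 4.44 (SE 0.26, edgeR adjusted p = 0.00124), but only 0.73 per kb and 0.50 per input read, the last not past the threshold. Its enrichment over input ran the other way, at 2.26 and 2.04 in pgEpiSC and 3.91 and 3.59 in pEF. A second region, 31.5 kb from FOS at chr7:98410801-98418000, had 17.3, 16.7, 17.1 and 36.8 CPM and was not called, with 3 of the libraries alike.

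Other large differences towards pgEpiSC lay inside MPDZ, which encodes a scaffold protein of tight junctions, and GTDC1, a glycosyltransferase-like gene. The MPDZ region had 70.2 and 80.0 CPM in pgEpiSC and 2.93 and 3.26 in pEF (log2 fold change 4.60), from islands of 16.8 and 17.2 kb against 1.2 and 1.2 kb, and the difference per kb of island was 1.17. GTDC1 had 96.8 and 72.1 against 4.24 and 2.45 (4.66, and 1.15 per kb), with no base common to all 4 libraries and no call per input read (0.84). Regions beside LOC110255228, FRMD3 and SNX19 had log2 fold changes of 4.49, 4.44 and 4.42 by reads, and of 1.08 to 1.38 per kb. As near FOS, enrichment over input was higher in pEF beside LOC110255228 (2.75 and 2.64 in pgEpiSC against 4.22 and 2.81) and SNX19 (2.80 and 2.83 against 3.91 and 2.91). It was higher in both pgEpiSC libraries at ZNF831 and MPDZ, and did not separate the types at GTDC1 and FRMD3. By reads, all 8 stayed called with any 1 library left out, with edgeR adjusted p-values of at most 0.0244.

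The eighth region was 1.4 kb wide, lay 52.9 kb from CNOT6L, a subunit of the CCR4-NOT deadenylase, and had 137 and 160 CPM in pgEpiSC against 7.68 and 6.44 in pEF. Its enrichment over input was 1.80 and 1.18 in pgEpiSC and 0.138 and 0.144 in pEF, so in both pEF libraries the ChIP lay under the scaled input. The log2 fold change was 4.40.

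The largest difference towards pEF with a named gene was a region 86.8 kb from KCNRG, a regulator of potassium channels, at chr11:17680001-17697400. It had 16.9 and 21.7 CPM in pgEpiSC and 409 and 441 in pEF, with an enrichment over input of 3.45, 1.55, 28.5 and 20.5. The log2 fold change was -4.46 (SE 0.23, edgeR adjusted p = 0.00124), and -1.86 per kb of island. No pgEpiSC value came near the pEF values.

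A region inside SOX6, a transcription factor of cartilage and muscle development, was 8.0 kb wide and lay at chr2:42451801-42459800. It had 7.86 and 9.40 CPM in pgEpiSC and 143 and 157 in pEF, a log2 fold change of -4.12 that was -2.05 per kb and -1.84 per input read and passed on all 3 scales. Regions beside BCAT1, which encodes the cytosolic branched-chain aminotransferase, and COPRS, a cofactor of the arginine methyltransferase PRMT5, had log2 fold changes of -4.23 and -4.09, and of -1.55 and -1.17 per kb. The BCAT1 region had 12.7, 11.8, 238 and 221 CPM, pgEpiSC 1 and 4 first and then pEF 1 and 2, as in the lists of 4 values that follow. Both pEF values stood far above both pgEpiSC values.

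The other 4 of the 8 lay over 100 kb from any gene end. The region at chr15:1115601-1130800, whose nearest gene is NMI, had 6.12, 5.20, 131 and 118 CPM, and that at chr1:4242201-4255000, nearest to QKI, had 8.31, 12, 191 and 193. The region at chr6:26348201-26362400 had 7.52, 5.88, 115 and 132. In these 3 the pEF libraries were alike, and the differences per kb were -0.81, -2.20 and -0.95. In the last, a region of 1.0 kb at chr18:30920201-30921200 nearest to MDFIC, pEF 1 had 234 CPM and pEF 2 had 17.0, against 8.08 and 4.29 in pgEpiSC. Its log2 fold change of -4.35 (SE 1.27, edgeR adjusted p = 0.0414) was lost without pgEpiSC 1, pgEpiSC 4 or pEF 1, with adjusted p-values of up to 0.191.

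**Figure D3:**
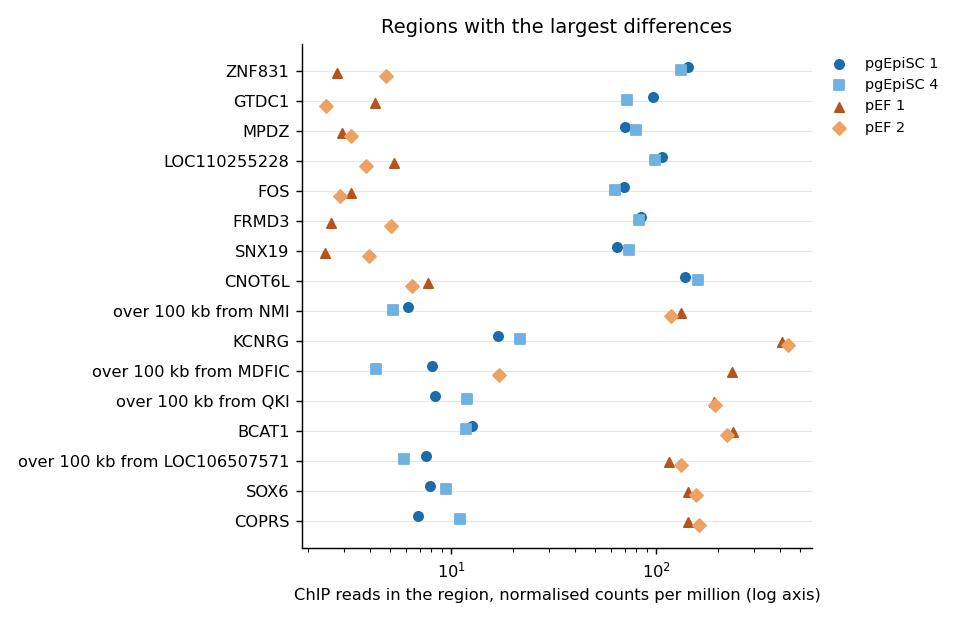
ChIP reads per region in normalised CPM (log axis), 1 point per library, for the 8 shared distal regions with the largest difference towards pgEpiSC (upper rows) and towards pEF (lower rows). The types do not overlap in any row; in the row nearest to MDFIC pEF 1 is at 234 and pEF 2 at 17.0.

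The counts of the gene lists are read against the shares among all 7891 shared distal regions. By reads these were 24.2% towards pgEpiSC and 17.7% towards pEF, and per kb of island 19.3% and 11.1%. List medians are read against 0.24 by reads and 0.20 per kb for the same 7891 regions. The core pluripotency list, with factors that sustain the undifferentiated state, had 2 regions, in 2 of its 14 genes of the reference. Over all protein-coding genes, 4017 of 18722 had a region. The rule keeps only regions under 20 kb with an island in both pEF libraries, so regions marked in pgEpiSC alone could not appear. The region 11.7 kb from LIN28B, the RNA-binding protein that blocks let-7 maturation, had 41.9 and 31.9 CPM in pgEpiSC and 12.7 and 6.11 in pEF. It was higher in pgEpiSC by a log2 fold change of 1.97 (SE 0.44, edgeR adjusted p = 0.0189), passed per kb (1.65) and per input read (1.71), and was lost without pgEpiSC 1 or pgEpiSC 4 (adjusted p = 0.107 and 0.0709). ZFP42, a pluripotency marker also known as REX1, had 17.0, 9.94, 32.4 and 21.2 CPM and was not called (-0.99).

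The formative and primed epiblast list had 9 regions in 4 genes, 3 higher in pgEpiSC and 1 in pEF by reads and 4 and 2 per kb, with a median of 1.76. Without pgEpiSC 1 the calls were 2 and 0, and without pgEpiSC 4, 1 and 0. CDH2, which encodes N-cadherin, held 6 of them. The one 83.9 kb away had 42.3 and 59.4 CPM in pgEpiSC against 6.52 and 7.57 in pEF (2.85), but was not called per kb (0.80). A region 25.5 kb away had 12.8 and 10.3 against 22.0 and 41.2 (-1.45), a call that was lost per input read (0.06) and without pgEpiSC 1, pgEpiSC 4 or pEF 2. The region near ETV4, a transcription factor downstream of FGF, had 56.0, 36.4, 38.9 and 39.9 CPM and was not called by reads (0.23), but was called higher in pEF per kb of island (-0.67).

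The epithelial adhesion list had 9 regions in 7 genes, 3 higher in pgEpiSC and 2 in pEF by reads and 2 and 1 per kb. Inside CDH1, which encodes E-cadherin, the region had 110 and 99.6 CPM in pgEpiSC and 37.4 and 56.6 in pEF (log2 fold change 1.15, edgeR adjusted p = 0.02), and was not called per kb (0.28), nor without pgEpiSC 1 or pgEpiSC 4. Its enrichment over input was 3.18 and 2.29 in pgEpiSC and 6.88 and 7.53 in pEF. The region inside TJP1, the tight junction protein ZO-1, had 90.6, 70.5, 101 and 100 CPM and was not called.

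Regions of the fibroblast matrix list were 30 in 14 genes, and 11 (36.7%) were higher in pEF and 6 (20%) in pgEpiSC, or 8 and 5 per kb. The median was -0.56, beside 0.24 for all shared distal regions, and -0.03 per kb of island, beside 0.20. Without pgEpiSC 1 or pgEpiSC 4, 8 were higher in pEF and 0 or 1 in pgEpiSC. The region 27 kb from COL5A1, a fibrillar collagen gene, had 19 and 19 CPM in pgEpiSC and 285 and 333 in pEF, a log2 fold change of -4.02 (SE 0.20, edgeR adjusted p = 0.00124). Its enrichment over input was 1.74 and 1.86 against 15 and 20.2. Inside the same gene 2 other regions were higher in pgEpiSC (1.73 and 1.28), calls that were lost without pgEpiSC 1 or pgEpiSC 4. THBS2, which encodes the matrix glycoprotein thrombospondin 2, had 6 regions, 4 of them higher in pEF by reads and 2 of those also per kb. The one with the most reads had 27.8, 43.7, 105 and 134 CPM.

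The mesenchymal transcription factor list had 67 regions in 21 genes, 11 higher in pgEpiSC (16.4%) and 12 in pEF (17.9%). Without pgEpiSC 1 these were 3 and 5, and without pgEpiSC 4, 2 and 3. Per kb of island the balance turned, with 12 and 5. TCF4, a bHLH factor, had a region inside the gene at 40.3, 31.1, 136 and 127 CPM (log2 fold change -1.88). PRRX1, a homeobox factor of limb and connective tissue mesenchyme, had 45.0 and 14.8 CPM in pgEpiSC and 104 and 123 in pEF (-1.93), a call that was not made per kb (-0.44) or without pgEpiSC 4. The HOX list, with 36 genes in the reference, had no shared distal region. The rule leaves out regions within 2 kb of a gene end and those of 20 kb or wider.

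Genes of the actin cytoskeleton and adhesion had 27 regions, 5 higher in pgEpiSC and 6 in pEF, with 0 towards pgEpiSC without pgEpiSC 1 or pgEpiSC 4, and 7 and 5 per kb. A region near PDLIM5, a cytoskeletal adaptor, had 36.4, 22.2, 154 and 228 CPM (-2.70), and one near MYH9, non-muscle myosin heavy chain, had 69.3, 62.1, 67.9 and 90.4 and was not called. Genes of AP-1, TEAD and YAP had 22 regions, 2 higher in pgEpiSC and 6 in pEF (median -0.33), 2 and 4 per kb, and 1 and 2 without either pgEpiSC library. VGLL4, which competes with YAP for TEAD, had 58.9, 53.0, 148 and 185 CPM (-1.57), and TEAD1 had 53.3, 43.7, 40.3 and 74.9 and was not called.

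Signalling genes were mixed. The TGF-beta and BMP list had 21 regions, 4 higher in pgEpiSC and 6 in pEF, or 2 and 1 without either pgEpiSC library and 5 and 3 per kb. TGFBR2, the type II receptor, had 50.5, 30.7, 109 and 77.7 CPM (-1.20), a call that was not made per input read (0.05) nor without pgEpiSC 1, pgEpiSC 4 or pEF 1. In contrast, TGFBR1, the type I receptor, had 78.0, 84.7, 55.7 and 53.5 and was not called. The list of FGF and MAPK feedback genes had 37 regions, 5 higher in pgEpiSC and 7 in pEF, or 1 and 5 without pgEpiSC 1 and 6 and 7 per kb. The 2 regions near ERRFI1, an inhibitor of the EGF receptor, were both higher in pEF: 33.3, 26.2, 321 and 272 CPM in the wider (-3.32) and 19.2, 10.2, 239 and 227 in the other (-3.99), on all 3 scales.

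The WNT list had 23 regions, 8 higher in pgEpiSC and 5 in pEF, 5 and 3 per kb, and 1 or 2 against 1 without either pgEpiSC library. TCF7L2, a transcription factor of the pathway, had 57.4, 43.3, 55.6 and 73.8 CPM in a region that was not called and 37.6, 33.0, 67.9 and 65.0 in another (-0.91), whose call was lost per kb (-0.55), per input read (-0.57) and without pgEpiSC 1 or pgEpiSC 4. The growth, metabolism and hypoxia list had 32 regions, 6 and 8, or 1 and 4 without pgEpiSC 4, and 8 and 3 per kb. PFKFB3, a regulator of glycolysis, had 39.1, 45.3, 105 and 125 CPM (-1.45), and was not called per kb (-0.46) or without pgEpiSC 1. VEGFA, the angiogenic growth factor, had 65.9, 78.6, 79.0 and 67.9 CPM, among the most even of the named regions on all 3 scales (-0.02 by reads, 0.02 per kb, -0.13 per input read).

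Chromatin enzymes had the largest share of regions higher in pgEpiSC among the lists with over 10 regions: 27 of 67 (40.3%), with 9 higher in pEF (13.4%) and a median of 0.72. Per kb of island the counts were 20 and 3, and per input read 20 and 2. Without pgEpiSC 1 they were 14 and 2, and without pgEpiSC 4, 10 and 3. A region near CHD2, a chromatin remodeller, went the other way, with 63.1, 81.2, 188 and 175 CPM (-1.33), and was not called per kb (0.18).

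Among the 27 regions, the following were named after their values were seen. A region near CHD7, a remodeller of the CHD family, had 75.1 and 56.7 CPM in pgEpiSC and 4.32 and 4.65 in pEF (log2 fold change 3.88, edgeR adjusted p = 0.00139). Inside KDM4C, a histone H3 lysine demethylase, a region had 64.9, 68.1, 6.83 and 7.17 CPM (3.25), and inside KMT2C, an H3K4 methyltransferase of enhancers, 65.7, 49.7, 3.97 and 6.95 (3.40). All 3 were called on all 3 scales, and pgEpiSC and pEF values did not overlap in any of them. A region near DNMT3A, the de novo DNA methyltransferase, which is on the epiblast list, had 41.6, 34.8, 10.4 and 5.45 CPM (2.27), and was not called per input read (0.81) or without pgEpiSC 1 or pgEpiSC 4.

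The list of broadly expressed transcription factors had 71 regions, 15 higher in pgEpiSC and 18 in pEF, or 3 and 9 without either pgEpiSC library and 13 and 10 per kb. ZBTB20 had 14 of them, 1 and 4, and the one with the most reads had 6.62, 17.8, 181 and 139 CPM (-3.71). CEBPB, a basic leucine zipper factor, had 76.8, 73.2, 115 and 157 CPM in a region 87.5 kb away (-0.86), where 15 of 17.4 kb lay in islands of all 4 libraries. That call was lost without pgEpiSC 1 or pgEpiSC 4 (adjusted p-values of 0.139 and 0.158 by edgeR). The cell cycle list had 11 regions, 1 and 1 by reads and 0 and 3 per kb, among them CCND3, a D-type cyclin, with 15.5, 11.6, 132 and 139 CPM (-3.32), and MDM2, the p53 ligase, with 56.9, 46.5, 47.0 and 48.9, not called. The housekeeping list had 7 regions, 0 and 2, both near YWHAZ, a 14-3-3 protein, at 30.2, 29.9, 127 and 95.6 CPM (-1.89) and 15.7, 12.9, 79.0 and 113 CPM (-2.75). The latter was not called per kb (-0.48), and neither was called per input read (-0.52 and -0.15).

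Lists of other cell types were short, with 10 to 14 genes of the reference and 1 to 10 regions each. Genes with a region were 5 of 14 (endothelial), 2 of 13 (blood), 1 of 12 (neural), 2 of 12 (muscle), 1 of 10 (keratinocyte) and 3 of 12 (trophectoderm). Over all protein-coding genes they were 4017 of 18722. The endothelial list had 10, of which 1 was higher in pgEpiSC and 5 in pEF by reads and 2 and 4 per kb. CDH5, the cadherin of vessels, had 38.4, 34.4, 90.9 and 116 CPM in a region 68.0 kb away (-1.51), a call lost without pgEpiSC 4, and ERG, an ETS factor, had 55.3, 41.4, 57.0 and 60.5, not called by reads (-0.28) and higher in pgEpiSC per kb (0.65). The blood list had 2, both higher in pgEpiSC by reads and neither per kb. SPI1, a myeloid factor, had 56.1, 45.7, 20.3 and 27.1 CPM, and ITGB2, an integrin of leukocytes, 27.8, 36.1, 7.48 and 4.35. The neural, muscle, keratinocyte and trophectoderm lists had 1, 3, 1 and 5, with 0 higher in pgEpiSC and 2 in pEF altogether. The region of GCM1, a trophoblast factor, had 21.2, 21.8, 17.7 and 21.4 CPM. What these regions do in either cell type was not tested.

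**Figure D4:**
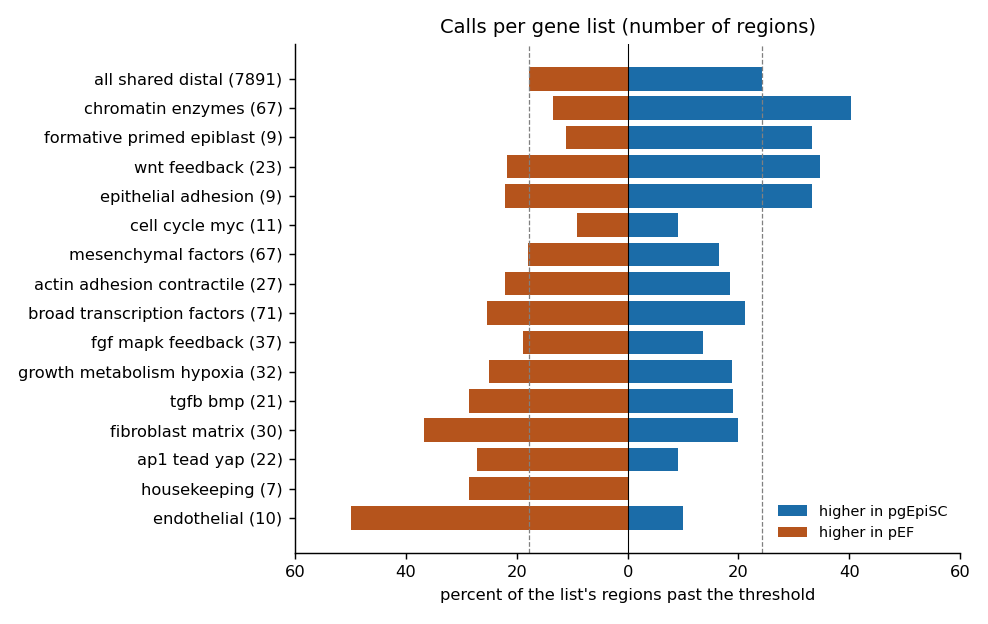
Percent of each list's shared distal regions past the threshold by ChIP reads, for lists with at least 7 regions (number in brackets), to the right if higher in pgEpiSC and to the left if higher in pEF. Dashed lines give the shares among all 7891 regions, 24.2% and 17.7%; chromatin enzymes reach 40.3% to the right.

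A RefSeq microRNA gene lay in 16 of the shared distal regions, matched by its place. The 6 with the most reads were chosen by rule and the other 10 are named after their values were seen. MicroRNA sequences were not used here. Of the 16, 4 were higher in pgEpiSC by reads, 4 in pEF and 8 were not called. Among all 7891 shared distal regions the shares were 24.2%, 17.7% and 58.0%. With so few regions, the counts are not read as a result about microRNA genes.

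The let-7i region, at chr5:27250001-27258200 between genes, had 84.3 and 82.6 CPM in pgEpiSC and 104 and 116 in pEF, and was not called by reads (-0.40). let-7 microRNAs are the targets of LIN28 proteins and accumulate as cells differentiate. Its enrichment over input was 5.02, 4.94, 20.7 and 19.7, and per kb of island it was higher in pEF (-0.62). The region of the MIR17 to MIR92A-1 cluster, whose microRNAs favour proliferation, had 64.5, 66.3, 62.9 and 47.7 CPM, and was called on none of the 3 scales. Its enrichment, 7.10, 5.96, 19.2 and 14.7, had the highest minimum over libraries among the 3541 regions called on no scale.

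Around MIR125A, MIRLET7E and MIR99B, which form a cluster, the region had 70.0, 74.2, 99.2 and 89.2 CPM and was called on none of the scales. The MIR339-1 region inside C3H7orf50 had 88.4, 85.7, 95 and 66.4 CPM, not called by reads (0.11), and was higher in pEF per kb (-1.28) and per input read (-1.34). There the pgEpiSC islands covered 13.8 and 14.4 kb and the pEF islands 3.8 and 4.6 kb. The MIR9836 region had 45.5, 33.3, 58.6 and 55.9 CPM and was not called.

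The microRNA 199 family is known from mesenchymal cells. The MIR199A-2 region inside DNM2 had 11.3 and 25.5 CPM in pgEpiSC and 163 and 149 in pEF, a log2 fold change of -3.08 (SE 0.43, edgeR adjusted p = 0.00495), and was called on all 3 scales. The MIR199B region inside DNM1 had 11.1, 8.59, 45.5 and 37.8 CPM (-2.08, edgeR adjusted p = 0.00478). In both regions the pEF libraries stood above the pgEpiSC libraries. MIR383 (-1.86) and MIR216-1 (-1.71) were also higher in pEF by reads, but not per kb of island (-0.09 and -0.41).

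Towards pgEpiSC, the MIR205 region had 60.2 and 37.2 CPM against 3.24 and 4.39 in pEF, a log2 fold change of 3.67 (edgeR adjusted p = 0.00254), 1.39 per kb. miR-205 is known from epithelia. The MIR7143 region had 63.0, 58.3, 6.48 and 8.30 CPM (3.03), and the MIR122 region, whose microRNA is known from the liver, had 52.8, 44.7, 18.8 and 7.13 (1.91). The MIR148A region had 32, 27.7, 12.2 and 15 (1.14). In these 4 regions both pgEpiSC libraries stood above both pEF libraries. The calls at MIR122 and MIR148A were lost without pgEpiSC 1 or pgEpiSC 4, and MIR148A was not called per kb (0.54) or per input read (0.35). The regions of MIR30D and MIR30B, MIR7134 and MIR9811 were not called by reads (1.03, 0.27 and -0.66). That of MIR30D and MIR30B was higher in pgEpiSC per kb (0.87) and per input read (0.94), and the others were called on no scale.

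**Figure D5:**
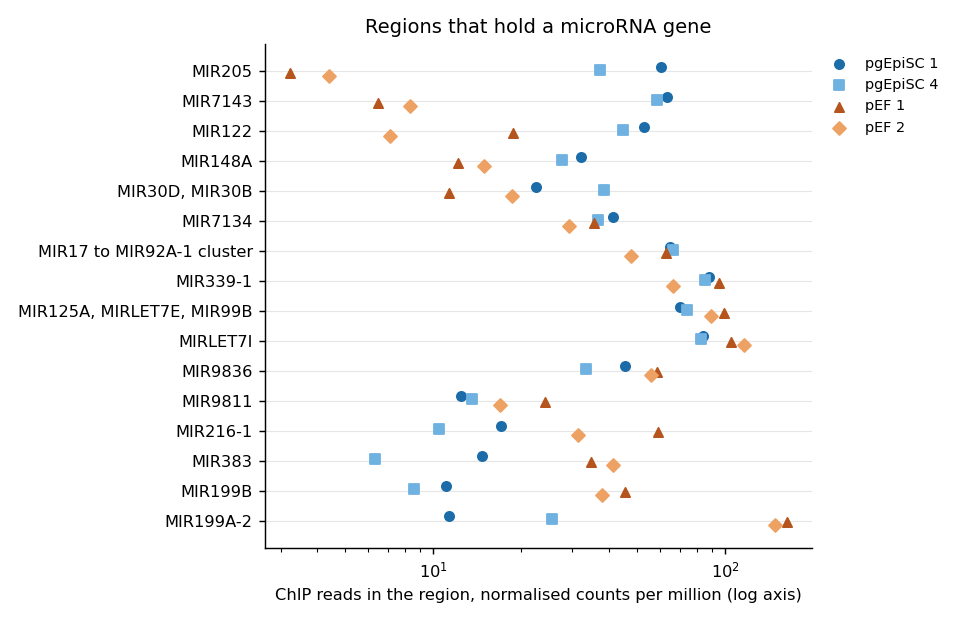
ChIP reads in normalised CPM (log axis), 1 point per library, for the 16 shared distal regions that hold a microRNA gene, ordered by log2 fold change. The upper 4 rows were higher in pgEpiSC and the lower 4 in pEF; in the MIR17 to MIR92A-1 row the 4 libraries lie between 47.7 and 66.3.

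On none of the 3 scales were 3541 regions (44.9%) called, and 579 of these had an enrichment of at least 2-fold in all 4 libraries. The failure to pass a test does not show that the levels were equal. After the MIR17 to MIR92A-1 region, the next by their lowest enrichment, named after their values were seen, included a region inside PICK1, a scaffold protein, with 18.7, 17.4, 28.8 and 26.2 CPM, and one inside SF3B1, a splicing factor, with 51.7, 60.1, 76.2 and 81.2. Their pgEpiSC enrichment was 5.07 and 5.10 at PICK1 and 5.20 and 4.88 at SF3B1. The regions inside NHSL1 and near NFIA had 32.1, 33.4, 23.6 and 39.2 and 26.2, 28.7, 19.2 and 33.0 CPM, where the pEF libraries stood on both sides of the pgEpiSC libraries.

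Among the tenth of regions with the most reads, the 6 with the smallest log2 fold change were named by rule. The region inside NEDD9, an adhesion scaffold, had 73.1, 59.5, 50.2 and 82.8 CPM, and that inside CAMKMT, a calmodulin methyltransferase, 60.9, 52.1, 70.1 and 43.3. Inside KIAA1217 the pEF libraries differed, at 22.9 and 80.3 CPM, and lay on both sides of the pgEpiSC values of 56.0 and 47.5, with a log2 fold change of 0.00 (SE 0.58). A region beside LOC110262080 had 47.3, 54.1, 44.2 and 56.7 CPM and was higher in pEF per kb (-0.70). The other 2, beside PIGG and LOC102167213, were at most 0.259-fold over input in all 4 libraries. The region beside LOC102167213 was higher in pgEpiSC per kb (0.82) and per input read (0.94), and that beside PIGG was called on no scale.

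Regions with extreme counts were mostly short and rich in input. The 600 bp region 14.4 kb from PCP4, at chr13:203493601-203494200, held 211504, 96948, 318586 and 77049 ChIP reads and 105673, 42644, 137455 and 53696 input reads. By either count the 4 libraries did not group by type, nor by enrichment (2.10, 1.90, 3.02 and 1.65). The region was not called by reads (0.11) or per kb (0.61), but was called higher in pgEpiSC per input read (1.09). The region inside PRIMA1 held 27616, 19622, 36637 and 16089 ChIP reads over 24121, 19232, 20077 and 10261 of input. A region near ROPN1L had an enrichment of 0.0895, 0.0751, 0.101 and 0.109. It was not called by reads (0.42), but was higher in pgEpiSC per kb (1.08) and per input read (0.94). Regions near COL2A1 and PRPF19 had the next most reads per kb of island and were not called, with 130, 124, 128 and 107 CPM and 113, 105, 96.2 and 81.1 CPM. The region inside KCNB2 had 64.7, 47.3, 16.5 and 73.1 CPM and was not called either. A region of 0.4 kb near EFHB had 103, 53.2, 35.3 and 23.4 CPM and was higher in pgEpiSC by reads (1.41, edgeR adjusted p = 0.0375), per kb (1.82) and per input read (1.05). Its enrichment was 1.08, 0.493, 0.97 and 0.883, and the call by reads was lost without pgEpiSC 1 or pEF 2.

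Regions of 1 gene did not always go the same way. Of 1495 genes with at least 2 regions, 505 had calls by reads towards pgEpiSC only, 379 towards pEF only, 235 in both directions and 376 none. This split was not computed per kb of island or over all shared regions. ARID1B had 5 regions higher in pgEpiSC by reads and 2 in pEF, with log2 fold changes from -2.04 to 2.47, and 4 and 1 per kb. The region at chr1:10050201-10058600 had 13.6, 19.8, 58.0 and 79.6 CPM, and the next one along, at chr1:10059401-10066000, had 18.6, 16.5, 3.01 and 3.29. By reads these neighbours went opposite ways, and the latter was not called per kb (0.60). By reads, AUTS2 had 6 and 1, PRKG1 5 and 3, TENM3 3 and 4, and RBMS3 0 and 1 among 12. Per kb of island, AUTS2 had 2 and 1, PRKG1 3 and 0, TENM3 2 and 2, and RBMS3 1 and 1.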

How the data were processed

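H3K27ac ChIP-seq islands of 4 libraries were used, 1 list each. The submitters' processing notes name BWA 0.7.15, SAMtools 0.1.19 and SICER 1.1; no build, duplicate filter or mapping filter is given in the sources used here. Per island, the deposited lists give read counts for the ChIP and for its input, as the authors obtained them; the input column was taken from the layout of a SICER summary. They also give the authors' p-value and FDR per island, and the deposited fold of ChIP over scaled input, which is a ratio. Gene ends come from RefSeq on Sscrofa11.1, which was assumed to be the build of the lists. Sequences were not used here.

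Islands that shared at least 1 bp were merged, and ChIP counts of a library's islands were summed per region. All 20051 shared regions were fitted with edgeR 4.0.16 (R 4.3.3; TMM, quasi-likelihood test, 2 residual degrees of freedom). DESeq2 1.42.0 was an alternative. The rest used matplotlib 3.10.9, scipy 1.17.1, pandas 2.3.3 and numpy 2.4.6 under Python 3.11.15. On simulated counts of all 20051 regions, 12 of 100 regions changed 2-fold and 85 of 100 changed 4-fold were called, with 0 false calls. Only those regions were changed and all regions had the same spread, whereas 4552 and 4715 of the real regions were called. The simulated rates therefore do not carry over to the data. The counts hold no molecular identifiers. The binomial interval treats each region as independent and covers counting error only.

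Named regions were the 8 with the largest called difference each way, the 6 with the most ChIP reads per kb of island, the 6 most even of the tenth with the most reads, up to 2 per gene list by reads, the regions nearest to each threshold, up to 6 with a microRNA by reads and up to 3 with the most input per kb. The 5 genes with the most regions were named too. 1 region that the rule names is not reported here. Further regions of FOS, CDH2, COL5A1, THBS2 and ARID1B were named after their values were seen. The 22 gene lists (564 of 608 genes matched) were core pluripotency, formative and primed epiblast, epithelial adhesion, fibroblast matrix, mesenchymal factors, actin and adhesion, AP-1/TEAD/YAP, TGF-beta and BMP, FGF and MAPK feedback, WNT, growth and hypoxia, cell cycle, chromatin enzymes, broad transcription factors, housekeeping, HOX, endothelial, blood, neural, skeletal muscle, keratinocyte and trophectoderm. The regions and lists were chosen with earlier results of these data known.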

Additional observations from a re-analysis of the deposited data

Results flagged for a closer look

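The X chromosome lay outside the comparisons. It held 146 regions that met the same conditions, 69 of them inside genes. Their median enrichment over input was 3.82 and 2.15 in pgEpiSC 1 and 4 and 8.22 and 4.93 in pEF 1 and 2, above 1-fold in every library.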

How the results depend on the processing

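The 7891 regions became 1646 with islands of at least 2-fold enrichment and 1872 where each library's islands covered at least 50% of the region. The share inside genes, 57.9%, was then 55.3% and 56.6%, and 59.4% without the width limit. Leaving out a library gave 58.1% to 59.5%. Higher in pgEpiSC were 1913 regions, against 533 per kb of island and 365 per input read with offsets not centred (1522 and 1284 centred), 566 with 2-fold islands, 369 with the 50% rule and 662 to 2201 with a library left out. Higher in pEF were 1398, against 1912 per kb and 1942 per input read with offsets not centred (878 and 648 centred), 316, 270 and 609 to 1584. The median of 0.24 became 0.48 with total scaling, 0.0098 in the fit of these regions alone and 0.16 with the 50% rule. It turned to -0.19 per kb and -0.26 per input read where offsets were not centred, and was 0.21 to 0.33 with a library left out. Differences in input reads fell from 1927 to 58 per kb, centred, and were 1060 to 1224 with a library left out. The gap in enrichment of -0.72 ran from -0.80 to -0.63, and the difference in read share of -1.42 percentage points from -1.89 to -0.953. Centred offsets, and the medians under each setting, were added after seeing the data.

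Some named regions changed sign. Per kb, not centred, these were LOC110262080 (-1.09), ETV4 (-1.06), CDH1 (-0.12), MDM2 (-0.56), SPI1 (-0.018), ITGB2 (-0.28), MAML3 (-0.96) and C3H7orf50 (-1.67). Per input read, not centred, they were COL2A1 (-0.66), LOC110262080 (-1.06), ETV4 (-1.32), CDH1 (-0.34), SPI1 (-0.29), ITGB2 (-0.20), GCM1 (-0.81), MAML3 (-1.24), DIAPH1 (-0.59) and C3H7orf50 (-1.83). Per kb, centred, they were LOC110262080 (-0.70), ETV4 (-0.67), CHD2 (0.18), ERG (0.65), MAML3 (-0.56) and C3H7orf50 (-1.28). Per input read, centred, they were ETV4 (-0.82), TGFBR2 (0.053), MAML3 (-0.73), RGS22 (0.11) and C3H7orf50 (-1.34). DESeq2 kept the direction and side of the threshold for 86 of 87 named regions. Without pgEpiSC 1, 15 no longer passed, and without pgEpiSC 4, 16. The causes were not tested.

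No paired analysis was possible because pgEpiSC 1 and 4 and pEF 1 and 2 share only the number 1. With a library left out, the lone library of its type is assumed to vary like the others. With 2 libraries a type, 2-fold differences were seldom called in simulated counts. Few regions were changed there and all had the same spread, so this rate does not carry over to the data.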
